A study of Rattus norvegicus with 9 samples.

Results

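Genes by which the capillary endothelium of the heart takes up and carries lipid are described here in cardiac RNA of rats. Of 7 genes named for this purpose (Lipg, Gpihbp1, Lpl, Cd36, Fabp4, Rbp7 and Aqp7), 5 are among the 5760 genes listed in at least 1 of the 2 deposited tables. The members were selected on measured values: a table lists a gene when the authors' own test gave it an adjusted p under 0.05, and the large differences of Rbp7 and Aqp7 were known when the set was put together. Their differences are therefore given as descriptions with a standard error and without p. The table that holds libraries headed Cal and Model lists Lipg, Gpihbp1, Fabp4, Rbp7 and Aqp7, and the table that holds libraries headed Cal and Con lists Lipg, Gpihbp1 and Aqp7. Lpl and Cd36 were not analysed here because neither table lists them, and the same holds for Rbp7 and Fabp4 in the Con-headed libraries.

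The heart draws most of its fuel from fatty acids, which must cross the endothelium of its capillaries. Triglyceride in lipoproteins is split at the capillary surface by lipoprotein lipase (Lpl), which Gpihbp1 carries across the endothelial cell and holds in the lumen, while endothelial lipase (Lipg) acts mainly on phospholipids of high-density lipoprotein. Cd36 then helps fatty acids to enter the cell, Fabp4 binds them in the cytosol, Rbp7 is a cytosolic retinol-binding protein of the same family, and Aqp7 is a channel for glycerol and water. Several of these genes are also known from fat cells, macrophages or muscle.

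The hearts came from male Sprague Dawley rats, with 3 libraries in each of 3 groups. Control rats had sham surgery, and in the Model and Cal groups heart failure was brought about by tying off the left anterior descending artery. From the day after surgery the Cal group received calycosin (Cal), an isoflavone, by mouth at 80 mg/kg per day for 28 days, and the other groups received distilled water. The age of the rats and the part of the heart that was sampled are not given in the sources used here. In bulk tissue, fewer cells of a type and less RNA per cell cannot be told apart.

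The names of the groups conflict within the tables. In the first table the authors' mean column headed Cal averages the Model-headed samples in 4288 of 4288 genes, and the mean column headed Model averages the Cal-headed ones. In the second table the mean column headed Model averages the Cal-headed samples in 2458 of 2458 genes, and this table was also deposited under a name that sets Model against Con. Groups are called by their sample columns below (Con stands for the control rats), and whoever follows the mean columns has to read "headed Cal" as the untreated heart failure group and "headed Model" as the treated one. Which of the headings is right was not settled here, and every direction below depends on it. The recovered reads of the Cal libraries were identical in both tables for 986 of 986 shared genes. Reads on listed genes ranged from 2860826 to 3998471 per library in the first table and from 3270460 to 4659882 in the second. Their full depth is unknown.

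Levels are normalized counts, meaning reads divided by the authors' size factor of the library. A log2 difference is the mean of log2(normalized count + 1) in one group minus that in the other, here always Cal minus the other group, and is given with its standard error (SE). The added 1 (the pseudocount) makes it understate the change of low genes. For the 3 genes in both tables the Con level can be placed on the scale of the first table by a factor of 0.894, taken from the shared Cal libraries. Gene positions are those of the deposited mouse annotation, since the tables give mouse Ensembl identifiers for these rat samples and name no build.

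At the capillary surface, the gene of endothelial lipase and the gene of the lipase anchor went in opposite directions. Lipg (ENSMUSG00000053846, mouse chromosome 18 from 74939322 to 74961263, minus strand) had normalized counts of 557, 1390 and 1180 in the Model-headed libraries 1 to 3 and of 9.22, 24.4 and 18.8 in Cal-headed libraries 1 to 3. Every library headed Model was thus far above every library headed Cal, at 1042 ± 433 against 17.5 ± 7.67 (SD, n = 3 each), and the log2 difference, Cal minus Model, was -5.82 (SE 0.44). Beside the Con libraries, Lipg stood at 10.3, 27.4 and 20.9 in the Cal-headed libraries and at 5.59, 3.93 and 2.02 in the Con-headed ones, again without overlap. That difference was 2.05 on the log2 scale (SE 0.50), but it came down to 1.06 with a pseudocount of 10. The Con level rests on 12 reads over 3 libraries (95% exact Poisson interval 6.20 to 21.0, counting error only). Set on one scale, the mean level of Lipg was 303-fold higher in the Model-headed libraries than in the Con-headed ones.

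Gpihbp1 (ENSMUSG00000022579, mouse chromosome 15 from 75596628 to 75599481, plus strand) encodes a small protein that is tethered to the outer membrane by a glycolipid and is found on capillary endothelium. Its normalized counts were 792, 1018 and 952 in the Cal-headed libraries and 139, 98.8 and 147 in the Model-headed ones. The group means of 921 ± 116 and 128 ± 25.8 (SD, n = 3 each) differed by 2.85 on the log2 scale (SE 0.20), a 7.18-fold difference. Cal and Con overlapped for this gene, with 886, 1142 and 1062 against 1059, 1758 and 1373. This log2 difference of -0.42 (SE 0.18) was the smallest of the 8 listed differences of these genes. It moved to -0.24 without Con replicate 2 and to -0.85 with quantile normalization. Being listed, it lies inside the authors' limit, and values outside that limit were not analysed here.

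Comparing both genes within a library does not depend on the scaling between libraries. Per kilobase of the deposited gene length, the level of Lipg was 2.70, 9.49 and 5.43 times that of Gpihbp1 in the Model-headed libraries 1 to 3. In the Cal-headed libraries the order was the reverse, and the level of Gpihbp1 per kilobase was 127, 61.9 and 75.1 times that of Lipg. In the Con-headed ones it was 281, 664 and 1005 times that of Lipg, where Lipg had only 6, 4 and 2 reads. So by this measure the more abundant of the pair was Lipg in 3 of 3 libraries headed Model and Gpihbp1 in the other 6. The deposited length of Gpihbp1, 2554 bases, is nearly its whole span of 2854, whereas Lipg has 3787 bases in a span of 21942. Levels of Gpihbp1 per kilobase are thus likely low estimates. The order in the Model-headed libraries may depend on this, most of all at 2.70 in library 1. Gene length does not touch the shift of the ratio between groups.

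**Figure D1:**
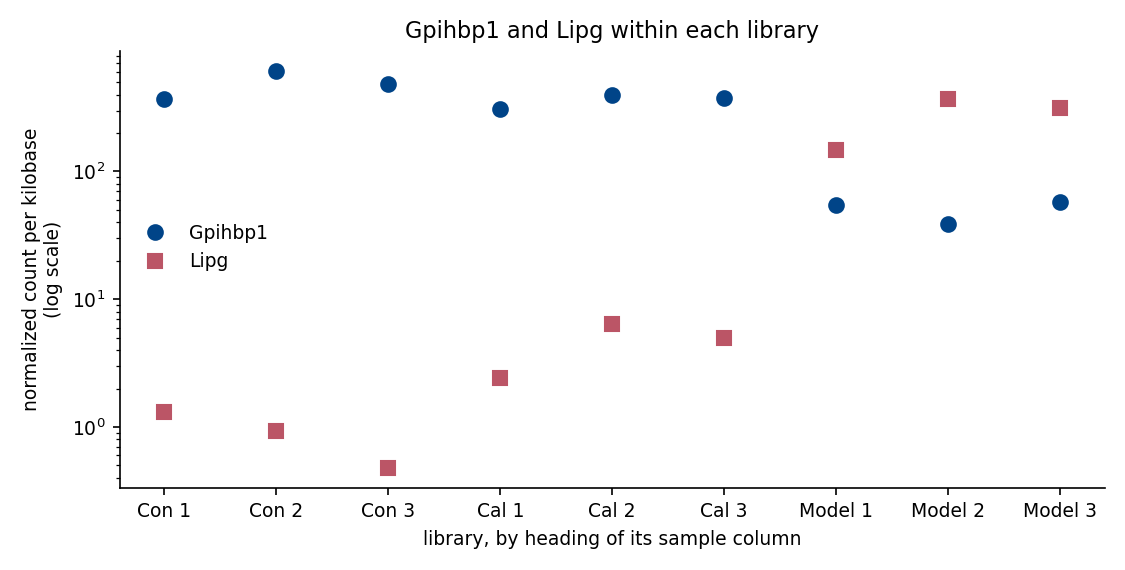
Normalized count per kilobase (log scale) of Gpihbp1 (circles) and Lipg (squares) in each of the 9 libraries, with the Con level placed on the scale of the first table. Gpihbp1 lies above Lipg in the Con-headed and Cal-headed libraries and below it in the 3 Model-headed ones.

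Inside the cell, both carriers of the set were lower in the Model-headed libraries. Fabp4 (ENSMUSG00000062515, mouse chromosome 3 from 10204088 to 10208576, minus strand), which binds long-chain fatty acids, had normalized counts of 4696, 6234 and 4646 in the Cal-headed libraries and of 2855, 1983 and 2121 in the Model-headed ones. The groups did not overlap, and their means of 5192 ± 903 and 2320 ± 469 (SD, n = 3 each) gave a log2 difference, Cal minus Model, of 1.17 (SE 0.19), which quantile normalization raised to 1.80. Fabp4 was the most abundant of the 5 genes per kilobase in the Cal-headed libraries (1157 ± 201, SD, n = 3) and in the Model-headed ones (517 ± 104, SD, n = 3). These levels are low estimates, since the deposited length of Fabp4 equals its whole span of 4489 bases, introns included.

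Rbp7 (ENSMUSG00000028996, mouse chromosome 4 from 149449687 to 149454978, minus strand) differed far more. The libraries headed Cal had normalized counts of 130, 210 and 119, whereas the Model-headed ones had 5.40, 0 and 4.79, which is 5, 0 and 5 reads. The mean was 153 ± 49.9 against 3.40 ± 2.96 (SD, n = 3 each), and the log2 difference, Cal minus Model, was 5.48 (SE 0.71). Because the level in the Model-headed libraries rests on 10 reads in all (95% exact Poisson interval 4.80 to 18.4), the size depends on the pseudocount, with 6.74 for a pseudocount of 0.1 and 3.59 for one of 10. Per kilobase, the level of Rbp7 was 17.3%, 21.1% and 16.0% of that of Fabp4 in the Cal-headed libraries 1 to 3, and 1.18%, 0% and 1.41% of it in the Model-headed ones 1 to 3. With the low estimate of Fabp4 these shares are upper values, but the change between groups is not touched by gene length.

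Of the 4 genes that were higher in the Cal-headed than in the Model-headed libraries, Rbp7 had the largest log2 difference, so the sequence just before its start is shown. It is the rat sequence from RefSeq (GRCr8, chr5:165177400-165177649, minus strand), the 250 bases before the start of the gene, 5′ to 3′, with matches to the GC box in capitals.
Rbp7: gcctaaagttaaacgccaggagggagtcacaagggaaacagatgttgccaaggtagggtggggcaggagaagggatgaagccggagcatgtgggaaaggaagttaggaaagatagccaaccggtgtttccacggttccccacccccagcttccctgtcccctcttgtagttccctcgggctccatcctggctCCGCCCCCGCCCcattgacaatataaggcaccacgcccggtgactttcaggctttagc
The GC box, GGGCGG on either strand, was found 2 times next to each other, the first match starting 58 bases before the start, and 30.5% of 33469 rat promoter windows of this length hold one. The nuclear receptor half-site AGGTCA, the CCAAT box CCAAT and the TATA box TATAAA had no exact match on either strand in this window, while 14.1%, 34.0% and 12.9% of all windows hold one. A match of letters is a description and no evidence of binding. Of the 7 genes, 3 were in the RefSeq promoter table.

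Fabp5 and Fabp7, relatives of the carriers, were also higher in the Cal-headed than in the Model-headed libraries. Fabp4 and Rbp7 belong to the family of intracellular lipid-binding proteins, of which the lists of genes below also contain Fabp5 and Fabp7 in the first table. Fabp7, a brain-type carrier, was at 15.7, 7.51 and 13.7 in the Cal-headed libraries and 2.16, 1.22 and 0 in the Model-headed ones. Fabp5, the epidermal carrier that endothelium also makes, was at 451 ± 52.6 and 149 ± 34.0 (SD, n = 3 each), a log2 difference of 1.61 (SE 0.20, adjusted p = 0.000593 from limma). Between Cal and Con, Fabp5 was lower in Cal without overlap, with a log2 difference of -0.69 (adjusted p = 0.00106 from limma). It was not called, but was with quantile normalization (-1.03). Fabp3, a relative listed only in the second table, was at 0.46 there, not called, and at -0.04 with quantile normalization. Fabp5 and Fabp3 were picked out as relatives after their values had been seen.

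Aqp7 (ENSMUSG00000028427, mouse chromosome 4 from 41033074 to 41048139, minus strand) was highest in the Con-headed libraries, lower in the Cal-headed ones and lowest in the Model-headed ones. The libraries headed Cal had normalized counts of 330, 175 and 291 and the Model-headed ones 22.7, 11.0 and 9.58, with means of 265 ± 81.0 and 14.4 ± 7.19 (SD, n = 3 each). The log2 difference, Cal minus Model, was 4.16 (SE 0.39). Beside the Con libraries, Aqp7 was at 369, 196 and 325 in the Cal-headed libraries and at 493, 715 and 605 in the Con-headed ones. These groups were also apart, and the log2 difference, Cal minus Con, was -1.06 (SE 0.24). It lies at the fold limit of 1 used for calls below and was -0.79 without Cal replicate 2 and -0.93 without Con replicate 2. On one scale the mean of Aqp7 was 37.5-fold higher in the Con-headed libraries than in the Model-headed ones. Per kilobase, the level of Aqp7 was 42.0%, 36.7% and 39.8% of that of Gpihbp1 in Con-headed libraries 1 to 3, 37.6%, 15.5% and 27.6% in the Cal-headed ones and between 5.90% and 14.7% in the Model-headed ones. The Model-headed libraries had the lowest shares, without overlap with the other groups. Yet 14.7% in Model-headed library 1 lies close to 15.5% in Cal-headed library 2, and the Model-headed shares rest on few reads of Aqp7. With the low estimate of Gpihbp1 the shares are likely too high, but gene length does not touch their change between groups.

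**Figure D2:**
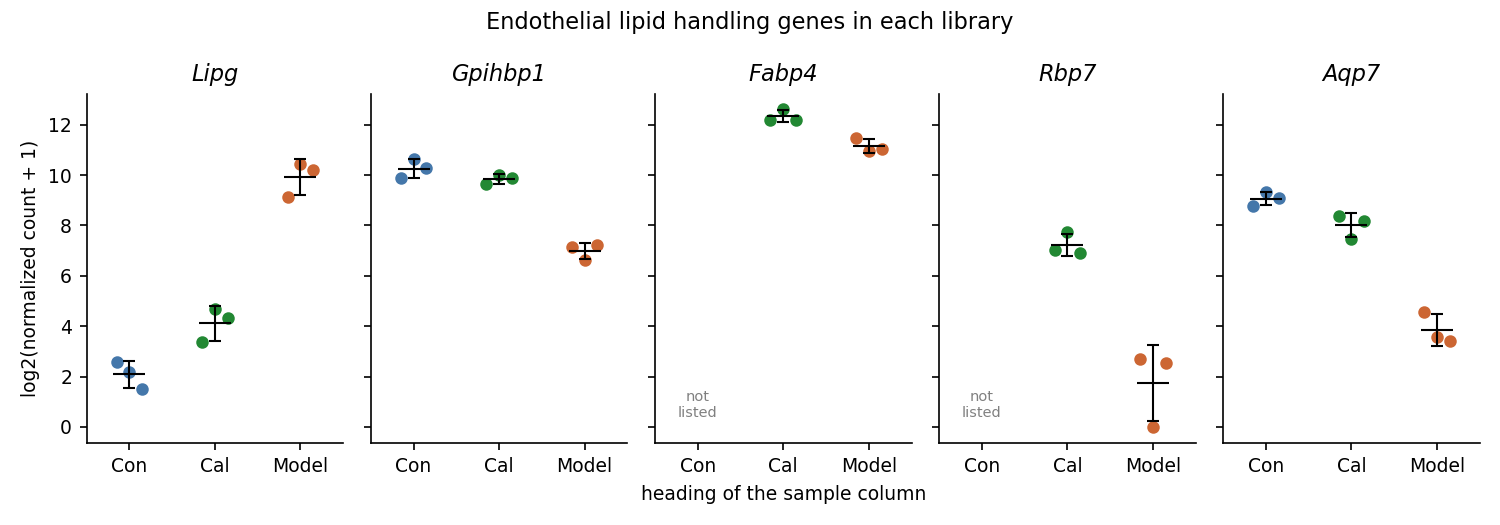
Level of the 5 listed genes, as log2(normalized count + 1), in each library (points) with the mean and SD over 3 libraries (bars), by the heading of the sample column, with Con placed on the scale of the first table. Lipg is highest in the Model-headed libraries and the other 4 genes are lowest there, and Fabp4 and Rbp7 have no Con values.

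The levels of the 3 groups had the order Con, Cal, Model from high to low for Gpihbp1 and Aqp7 and the opposite order for Lipg. The neighbours in this order were apart in every library except for Gpihbp1 between Con and Cal. All 5 genes were called between the Cal-headed and Model-headed libraries, which asks for a limma adjusted p below 0.05 with more than 1 on the log2 scale, and had groups that did not overlap. As background, 60.1% of all 4288 listed genes were called and 98.2% had groups that did not overlap, and since the members were selected on this contrast nothing is read from the counts. Between Cal and Con 2 of 3 genes were called and 2 of 3 did not overlap, beside 29.0% and 97.4% of 2458 listed genes, and Aqp7 fell short of the fold limit without Cal replicate 2 or Con replicate 2. Both comparisons share the Cal-headed libraries.

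Between animals of a group, Gpihbp1, Rbp7 and Fabp4 deviated in the same direction more than Lipg and Aqp7 did. Among the Cal-headed libraries, number 2 had the highest level of Rbp7, Gpihbp1, Fabp4 and Lipg and the lowest of Aqp7. Among the Model-headed ones, number 2 had the lowest level of Rbp7, Gpihbp1 and Fabp4 and the highest of Lipg. Over the 6 libraries of the first table, the deviations from the group mean on the log2 scale had a Pearson correlation of 0.895 for Gpihbp1 and Rbp7, 0.676 for Fabp4 and Rbp7, 0.586 for Gpihbp1 and Fabp4, -0.894 for Lipg and Aqp7 and between -0.349 and 0.179 for the other pairs. The values with Rbp7 rest largely on Model-headed library 2, which had 0 reads of Rbp7 beside 5 and 5 in libraries 1 and 3. All these correlations are descriptions from 3 libraries per group, which share their size factors.

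The rest of the pathway was followed through lists of genes known for related roles, without the 7 genes above. Of 114 list genes, 41 are in the first table. Of these, 22 were called higher and 9 lower in the Cal-headed libraries than in the Model-headed ones, beside 28.4% of all listed genes called higher and 31.6% called lower. The median log2 difference, Cal minus Model, was 1.02 over the 41 genes and -0.52 over all listed genes. Other scalings move all genes, by 0.42 for quantile normalization and 0.30 for median-ratio scaling in the median, and the 1219 higher and 1356 lower calls of the whole table became 1646 and 1047 under the latter. Of the list genes 29 are in the second table, with 2 called higher and 3 lower in the Cal-headed libraries than in the Con-headed ones, beside 18.0% and 10.9% of all genes listed there. Quantile normalization and median-ratio scaling lowered the median there by 0.42 and 0.28, and turned the 443 higher and 269 lower calls into 348 and 387 or 342 and 447. The genes in a table had been chosen by the authors' test of the same groups, so these shares cannot be read as shares of all expressed genes. For the same reason an adjusted p under 0.05 from limma was nearly fixed in advance. It was reached by 4272 of 4288 genes in the first table and 2454 of 2458 in the second. The adjusted p-values given for list genes and markers are therefore no independent evidence of a difference.

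Among 11 listed regulators of lipolysis and lipoprotein receptors, 5 were called higher and 5 lower in the Cal-headed libraries than in the Model-headed ones. Without Model replicate 1 there were 3 higher and 3 lower, without Model replicate 2 there were 2 and 4, without Cal replicate 1 there were 3 and 5, and without Cal replicate 2 there were 5 and 3. Quantile normalization gave 4 and 3 and median-ratio scaling 5 and 3. Angptl4, a secreted inhibitor of lipoprotein lipase, was at 2406, 2594 and 2926 in the Model-headed libraries and 151, 534 and 332 in the Cal-headed ones. All libraries headed Model were thus above all headed Cal, and the log2 difference was -3.13 (SE 0.41, adjusted p = 0.00065 from limma). Lrp8, a receptor of the low-density lipoprotein receptor family, was at 103 ± 39.2 in the Model-headed libraries and 5.74 ± 3.78 in the Cal-headed ones (SD, n = 3 each). Its log2 difference was -4.06 (SE 0.53, adjusted p = 0.000673 from limma). With only 2 to 10 reads per Cal-headed library, it ran from -4.46 to -2.81 over the alternatives. Pcsk6, a protease that cleaves precursor proteins, was higher in the Cal-headed libraries, with 1.68 (SE 0.21, adjusted p = 0.000558 from limma). Glul, a member of the list that encodes glutamine synthetase and is not known as a regulator of lipolysis, was lower there, with -1.58 (adjusted p = 0.000477 from limma), and was not called with quantile normalization (-0.79). Without Glul the list has 10 genes in the first table, 5 called higher and 4 lower. Between Cal and Con, Sdc4 was the only called gene of this list. It encodes a heparan sulfate proteoglycan of the cell surface and stood at 4064, 4412 and 4597 in the Cal-headed libraries and at 393, 356 and 331 in the Con-headed ones. This log2 difference of 3.60 had a SE of 0.097 (adjusted p = 1.33e-07 from limma).

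In fatty acid uptake, transport and activation, 8 of 14 listed genes were called higher and 1 lower in the Cal-headed libraries than in the Model-headed ones. The caveolar genes Cav2, Cav1 and Cavin2 led the list. Cavin1, also caveolar and named after its value had been seen, was at 0.83 and not called. It was called with quantile normalization (1.45) and median-ratio scaling (1.13). Cav1, which encodes the main coat protein of caveolae, was at 3513, 3384 and 3422 in the Cal-headed libraries and at 643, 280 and 387 in the Model-headed ones (log2 difference 3.06, SE 0.28, adjusted p = 0.00023 from limma). Cav2 had 3.37 and Cavin2 3.02 (adjusted p = 0.000242 and 9.17e-05 from limma). Fabp7, described above, had 2.74 (adjusted p = 0.00315 from limma) and was not called with a pseudocount of 10. Plin2, the coat protein of lipid droplets, was the single gene called lower, at 752, 849 and 891 in the Cal-headed libraries against 4341, 4512 and 3325 in the Model-headed ones (-2.28, SE 0.16, adjusted p = 0.000125 from limma). It was named after its value had been seen.

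Tcf15 and Meox2 encode transcription factors that together are known to drive fatty acid uptake genes in cardiac endothelium. Both were called lower in Cal than in Con. Meox2 was at 135, 76.8 and 73.3 in the Cal-headed libraries and at 371, 400 and 382 in the Con-headed ones, a log2 difference of -2.06 (SE 0.23, adjusted p = 0.000182 from limma). Tcf15 had 258, 169 and 138 against 280, 643 and 466, with -1.26 (SE 0.32, adjusted p = 0.00664 from limma), and without Con replicate 2 it was -0.99 and not called. In the first table Tcf15 was at 231, 151 and 124 in the Cal-headed libraries and 35.6, 32.9 and 16.3 in the Model-headed ones. Cavin2 was the third gene of this list called lower in Cal than in Con, at -1.20 (adjusted p = 0.000265 from limma). Cav1 and Cav2 had -0.82 and -0.74 in that comparison, not beyond the fold limit, and passed it with quantile normalization at -1.27 and -1.16, when 6 genes of the list were called lower in place of 3.

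**Figure D3:**
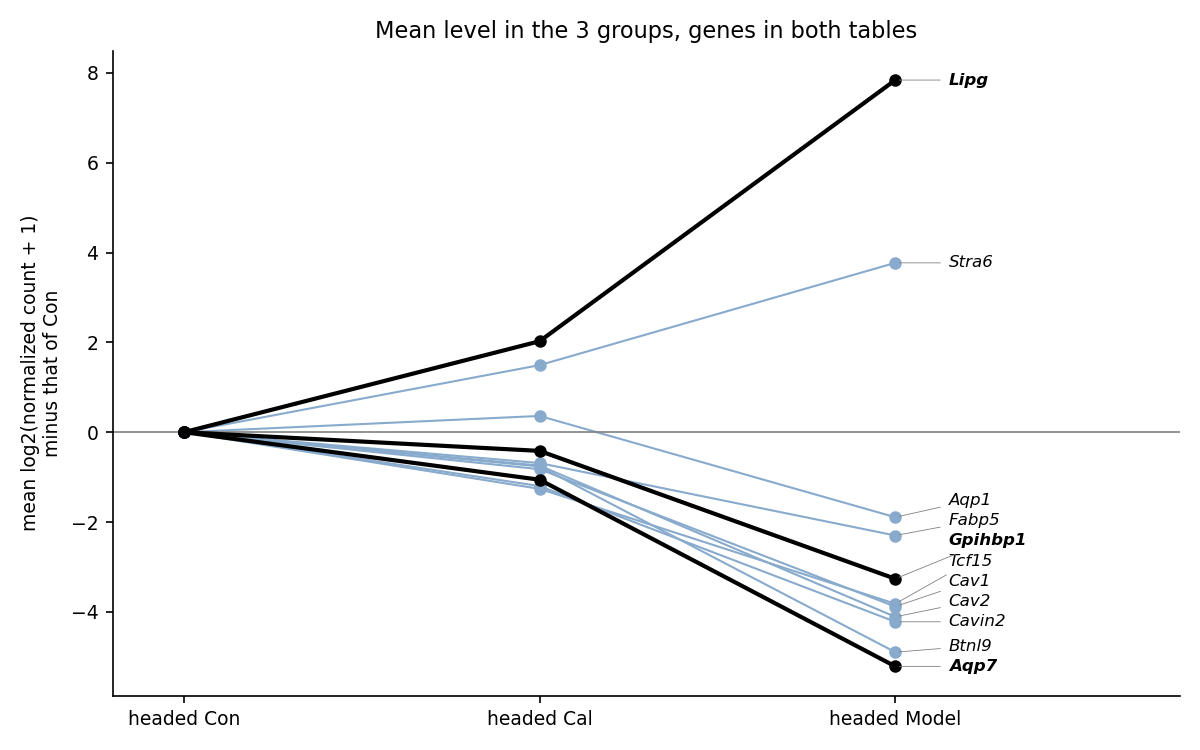
Mean log2(normalized count + 1) of each group minus that of the Con-headed libraries, for Lipg, Gpihbp1 and Aqp7 (black) and for 8 list genes in both tables (blue), from Con over Cal to Model. Lipg ends at 7.84 above Con, Gpihbp1 at -3.26 and Aqp7 at -5.21, and Cav1, Cav2, Cavin2, Tcf15 and Btnl9 end between -3.82 and -4.90.

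PPAR factors bind fatty acids and activate several of these genes together with RXR partners. Of 5 listed genes of this group, 3 were called higher in the Cal-headed libraries than in the Model-headed ones. These were the coactivators Ppargc1b (log2 difference 3.14, adjusted p = 0.000281 from limma) and Ppargc1a (1.72, adjusted p = 0.00175 from limma) and the receptor Rxra (1.01, adjusted p = 0.00298 from limma). Rxra lies at the fold limit and was not called in 6 of the alternatives, such as with edgeR, where it had 0.98. With median-ratio scaling all 5 were called higher. In the comparison of Cal with Con, 0 of 4 listed genes of the group were called by limma, and 0 by edgeR or DESeq2. The 4 had an adjusted, and so also an unadjusted, p under 0.05 from limma. So had 2454 of all 2458 genes listed there, which the authors' test had chosen.

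Genes of retinoid binding and metabolism were split, with 4 of 8 listed genes called higher and 3 lower in the Cal-headed libraries than in the Model-headed ones. Stra6, the cell-surface receptor for retinol-binding protein, was at 116, 106 and 152 in the Model-headed libraries, 28.6, 23.5 and 22.2 in the Cal-headed ones and, in the second table, 9.32, 7.86 and 10.1 in the Con-headed ones. Its log2 differences were -2.28 for Cal minus Model (adjusted p = 0.00032 from limma) and 1.50 for Cal minus Con (adjusted p = 0.0027 from limma), the second not called with a pseudocount of 10. Aldh1a2, which makes retinoic acid, was at -2.70 (adjusted p = 0.000158 from limma), and the receptor gene Rarg was at 2.58 (adjusted p = 0.000554 from limma). Cyp26b1, which breaks retinoic acid down, was at 757, 22.5 and 89.7 in the Cal-headed libraries, against 13.0, 12.2 and 10.5 in the Model-headed ones, and its log2 difference of 3.19 (adjusted p = 0.0215 from limma) comes with a widely spread Cal group. Leaving out Model replicate 1, 2 or 3 took its adjusted p to 0.0547, 0.0557 or 0.071, and the log2 difference was 1.84 without Cal replicate 1. Between Cal and Con, Aldh1a1, the other listed gene of this group, was at -0.54 (adjusted p = 0.0115 from limma).

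Among aquaporins and genes of glycerol metabolism, 2 of 3 listed genes were called, both higher in the Cal-headed libraries than in the Model-headed ones. Aqp1, the water channel of capillary endothelium, was at 10198 ± 1114 and 2261 ± 981 (SD, n = 3 each), a log2 difference of 2.25 (SE 0.29, adjusted p = 0.000644 from limma). Beside the Con libraries its level of 11706, 10062 and 12436 in the Cal-headed libraries overlapped with that of 7879, 10291 and 8511 in the Con-headed ones, and the log2 difference of 0.36 (adjusted p = 0.0149 from limma) became -0.07 with quantile normalization, under which that of Aqp7 was -1.36. Gpd1l had 0.59 in the first table and Gpd1 0.85 in the second, both without a call. Both encode enzymes of glycerol 3-phosphate. Pck1 is given with the fat cell markers.

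**Figure D4:**
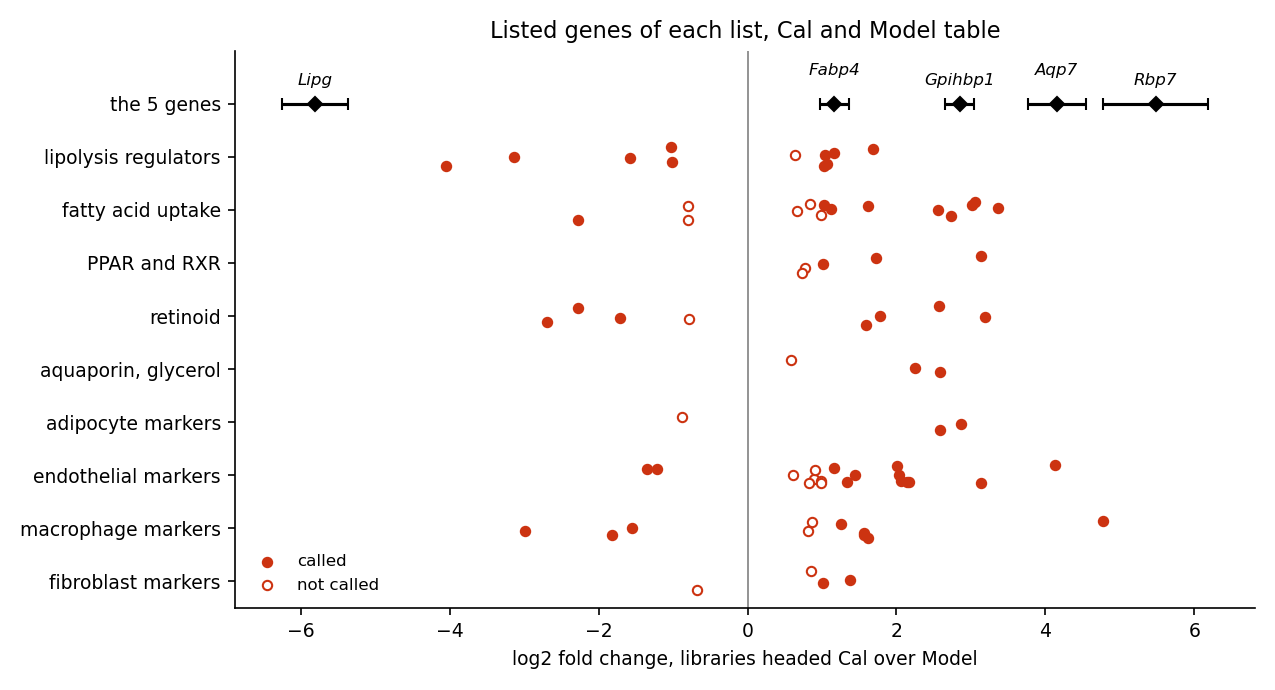
Log2 difference, Cal minus Model, for the 5 genes (black, with the SE) and for every listed gene of 5 pathway lists and 4 marker lists, filled where called by limma. Rbp7 at 5.48 and Aqp7 at 4.16 lie to the right of all 18 listed endothelial markers, Aqp7 by less than its SE beyond Btnl9 at 4.13, and Lipg at -5.82 lies to the left of them.

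Markers of the cells that could carry these transcripts moved too. Of 24 endothelial markers 18 are in the first table, where 10 were called higher and 2 lower in the Cal-headed libraries than in the Model-headed ones. With quantile normalization or median-ratio scaling 15 were called higher and 1 lower. Their summed level was 20401 to 23738 in the Cal-headed libraries and 10693 to 11783 in the Model-headed ones, and their log2 differences had a median of 1.25. Btnl9 and Ptprb were highest at 4.13 and 3.14, and Robo4 and Ecscr lowest at -1.36 and -1.22, and Robo4 was not called with quantile normalization (-0.83) nor Ecscr with median-ratio scaling (-0.92). Gpihbp1 at 2.85 exceeded 16 of the 18 markers and Fabp4 at 1.17 exceeded 9, or 5 to 9 over the alternatives. Aqp7 was below Btnl9 with quantile normalization, with a pseudocount of 10 and without Model replicate 2, Cal replicate 1 or Cal replicate 3, and Rbp7 was below it with a pseudocount of 10. Between Cal and Con 19 endothelial markers are listed, 1 called higher and 5 lower in Cal than in Con, with summed levels of 29564 to 32918 and 39592 to 47640. Aplnr and Sox17 were lowest at -2.88 and -2.06 and Cldn5 and Sox7 highest at 1.30 and 0.96, of which Cldn5 was not called with quantile normalization. Among the log2 differences of these 19 markers, that of Lipg exceeded 19, that of Gpihbp1 exceeded 15 (8 to 15 over the alternatives) and that of Aqp7 exceeded 5. The part of endothelial cell number in the differences of the 5 genes was not tested.

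Fat cells express Fabp4, Aqp7, Rbp7, Lpl and Cd36, and 3 of 15 fat cell markers are in the first table, whereas the defining marker Adipoq is not listed and was not analysed here. Plin1, the droplet coat protein of fat cells, was at 17.5, 5.63 and 39.3 in the Cal-headed libraries and at 0, 1.22 and 4.79 in the Model-headed ones (log2 difference 2.86, adjusted p = 0.0124 from limma). Pck1, an enzyme that feeds glycerol synthesis in fat cells, was at 15.7, 3.75 and 44.4 against 0, 2.44 and 3.83 (2.59, adjusted p = 0.0251 from limma), with groups that overlapped, and lost its call without Cal replicate 1 or 3 or Model replicate 1. Both were lowest in Cal replicate 2, as Aqp7 was, while Rbp7 and Fabp4 were highest there. The third marker, Plin4, which muscle also expresses, was at -0.88 (adjusted p = 0.00774 from limma), which was not called and became -0.29 with quantile normalization, while it was called at -1.01 without Model replicate 1 and at -1.05 without Cal replicate 2. It sets the summed level of the list at 2170 to 3288 in Cal and 3973 to 6167 in Model. Between Cal and Con, Plin4 was at 0.60, Lipe at -0.57 and Fasn at 0.54, with 0 calls by limma and 2 of these 3 at an adjusted p under 0.05. The part of fat cells in these differences was not tested.

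Of 15 macrophage markers 10 are in the first table, with 5 called higher and 3 lower in the Cal-headed libraries than in the Model-headed ones and summed levels of 8438 to 9627 and 3854 to 5378. Cx3cr1 was at the top with 4.77 and Fcgr1 at the bottom with -2.99. Cx3cr1 had only 0 to 2 reads per Model-headed library, and its log2 difference ran from 2.60 to 6.16 over the alternatives. The second table lists 4, with 1 called higher and 2 lower in Cal than in Con, with summed levels of 2109 to 2817 and 1317 to 1448. The higher sum in Cal rests on Cd14, with means of 1442 in Cal and 131 in Con on the scale of the first table. The other 3 were lower in Cal than in Con, and the median log2 difference of the 4 was -1.01. Of 9 fibroblast markers 4 are in each table, with 2 called higher in Cal than in Model and 1 called lower in Cal than in Con. Their summed levels were 17378 to 21126 in Cal and 15696 to 22941 in Model, and between Cal and Con 9550 to 12371 in Cal and 14389 to 16008 in Con. Dcn weighed most in the sums of Cal and Model, with means of 8610 and 13976. Its log2 difference of -0.68 was not called and became 0.15 with quantile normalization. The other 3 fibroblast markers of the first table were higher in Cal than in Model. Of 15 cardiomyocyte markers 0 are in the first table and 5 in the second, where they had log2 differences of 0.26 to 0.46 with 0 calls by limma, edgeR or DESeq2. The 5 had an adjusted, and so also an unadjusted, p under 0.05 from limma, as nearly all genes listed there had. Ryr2, Ckm and Fabp3 changed sign with quantile normalization, and Atp2a2 did with median-ratio scaling. The part of these cells in the results was not tested.

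The listed genes whose pattern was most like that of each member were sought among 3272 genes whose higher group averaged 100 or more, by Pearson's r of log2 values over the 6 libraries of the first table. They were Bmp4 for Lipg (r = 0.9995), Myadm for Gpihbp1 (0.9993), Stard9 for Aqp7 (0.9990), Stim1 for Rbp7 (0.9982) and Zfp369 for Fabp4 (0.9937). Most of such an r is the difference between 2 groups, and 67 genes exceeded 0.99 with Lipg, 48 with Gpihbp1, 41 with Aqp7, 28 with Rbp7 and 2 with Fabp4. Nearest to the mean of the standardized profiles of the 5 genes were Ermp1, Tnrc6c, Ctif, Zfp609 and St3gal2 (0.9958 to 0.9977). Their log2 differences, Cal minus Model, lay between 0.65 and 1.16. In this mean Lipg runs against the other genes and partly cancels them, so nearness to it is not likeness to each member.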

How the data were processed

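Cardiac RNA of 9 rats was sequenced as paired-end reads. The authors used rat reference sequences for the alignment, took a count for each gene and tested with DESeq2, as their methods state. The submitters' processing notes name Bowtie 0.12.2 and the mouse builds mm8 and mm9, and the identifiers are those of mouse genes. Which build was used, and the counting tool, are not given in the sources used here. The deposited signal of a sample column is a read count divided by 1 size factor per library, set separately for each table. Whole reads were recovered for 100% of values (tolerance 0.01 reads). The authors also deposited group means, a gene length in bases (another value of the tables) and columns of their own comparison. The means were used to check the headings and the length to give levels per kilobase. Of the comparison columns only the deposited adjusted p-value was read, to check that every listed gene was under 0.05, and the fold changes were not used. No other per-sample column was present.

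Each table was fitted alone over all listed genes with limma 3.58.1 (R 4.3.3, trended prior variance) on log2(normalized count + 1), with Benjamini-Hochberg adjustment over those genes. A gene was called where its adjusted p was below 0.05 and its log2 difference larger than 1 in size. The authors drew 3 animals per group at random, and p-values measure the spread between these. Two-sided exact tests of 3 against 3 cannot go below 0.1 and were not used. Members and lists were chosen with earlier results of these data known. From each list and table up to 4 called genes with the largest difference are named, all genes where 3 or fewer are listed, and of longer marker lists 2 each way or fewer. Each fit was repeated with quantile normalization or median-ratio scaling, with a pseudocount of 0.1 or 10, on genes averaging 10 or more, blocked by replicate number, without a fold limit, without each library in turn, and with edgeR 4.0.16 and DESeq2 1.42.0 on whole reads. The fit was tested on simulated data. Summaries were made with pandas 2.3.3 and scipy 1.17.1.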

Additional observations from a re-analysis of the deposited data

How the results depend on the processing

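The 8 log2 differences of the 5 genes kept their sign in all 104 alternatives, and 95 of these moved them by less than the SD between replicates. Without a fold limit 4272 genes of the first table and 2454 of the second passed, 29 of them list genes of the second table. The 5 list genes called there became 9 with quantile normalization and 8 with median-ratio scaling. Other counts over all genes, or over all list genes, of a table stayed within 1.5 times the main count in both directions together, while the 269 lower calls of the second table became 447 with median-ratio scaling. Counts of some single lists moved further. With the replicate block 2574 and 713 genes were called, beside 2575 and 712 without it. The numbers come from different animals, and same-numbered libraries had deviations correlated at -0.140 to 0.110, and 2 of 6 libraries in the first table and 0 of 6 in the second were closest to one of their own number, so they were not taken as pairs. Precision is limited by 3 libraries per group and, for Rbp7 in Model, Lipg in Con and Aqp7 in Model, by 10, 12 and 40 reads.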
